A study of Mus musculus with 39 samples.

Results

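This report compares the testis transcriptome of cetacean INSL3 knock-in (INSL3-KI) mice with that of wild-type (WT) mice at postnatal day 23 (P23). The comparison holds 6 of the 39 RNA-seq libraries of the study, 3 per genotype, picked by their genotype, tissue and age labels. The mice were on a C57BL/6J background, and the study's methods describe the WT controls as adult animals, while the labels give P23. In INSL3-KI mice the cDNA of minke whale INSL3 was targeted to the mouse Insl3 locus, and homozygous mice, without the selection cassette, made the whale peptide in place of their own. INSL3 knockout (INSL3-KO) mice carry no functional Insl3. The study asked how the whale hormone changes the testis and the gubernaculum, the ligament that draws the testis down, and it also sampled P8 and P40. Testes of INSL3-KI mice were described as staying in the inguinal region, and those of INSL3-KO mice near the kidney. The WT and INSL3-KO P23 testis libraries stand in one count table and the INSL3-KI P23 libraries in another, so table and genotype cannot be told apart. The P8 and P40 testes of WT and INSL3-KI stand in the same table as the INSL3-KI P23 libraries. Nothing in the labels ties a replicate number to a litter or a day, and p-values measure the spread between these samples.

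INSL3 is a small peptide hormone of the Leydig cells, the steroid-making cells between the seminiferous tubules. It acts through the receptor RXFP2, which raises cAMP, and it drives growth of the gubernaculum before birth. Inside the tubules, Sertoli cells carry germ cells from spermatogonia through meiosis to round and then elongating spermatids, and in the first wave after birth these stages appear one after another, elongating spermatids last.

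The 6 libraries held 36344484 to 42629270 counts, of which 94.2% to 96.7% fell on the 21561 Ensembl genes shared by both tables. Levels are given as CPM, that is counts relative to the library total, after TMM scaling over the 24 testis libraries. Some libraries stood apart from their labels, and many results are therefore also given without them or against other WT libraries. The libraries labelled WT P23 resembled WT P40, with correlations of log2(CPM + 1) over 16603 genes from 0.971 to 0.979, against 0.776 to 0.916 with INSL3-KI P23 and 0.449 to 0.486 with WT P8. Genes of elongating spermatids, the last stage to appear, summed to 46193 to 48925 CPM in WT P23 and to 30610 to 37428 CPM in WT P40. Among the INSL3-KI P23 libraries, replicates 1 and 2 correlated at 0.992, while replicate 3 correlated at 0.991 with INSL3-KI P40 replicate 1 and at most at 0.956 with its own group. The biological coefficient of variation was 0.0814 in WT P23 and 0.3533 in INSL3-KI P23.

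Insl3 itself came first, as the check of the labels. This gene lies at chr8:71689214-71690575 on the plus strand of GRCm38. It held 834, 1023 and 986 CPM in WT P23 and 1.42, 1.96 and 2.32 CPM in INSL3-KI P23, from 52, 66 and 84 counts. Every INSL3-KI library lay far below every WT library, and the fitted log2 fold change was -8.95 (SE 0.31, adjusted p = 5.47e-05, edgeR quasi-likelihood test with Benjamini-Hochberg adjustment). INSL3-KO P23 libraries held 0, 0.115 and 0 CPM, and INSL3-KI P40 libraries held 11.7, 11.1 and 12.5 CPM.

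The mouse and whale coding sequences show what a count at the mouse gene can and cannot capture. The mouse coding sequence has 369 bases and the whale one 402. Aligned end to end, 363 bases faced each other and 273 of them (75.2%) were identical, with no shared run longer than 12 bases. The longer stretch without a gap runs from mouse base 79 to 239 and whale base 94 to 254, counted from the start codon, and is printed 5′ to 3′ because it holds 37 differences over 161 bases (capitals mark the bases that differ).
mouse Insl3: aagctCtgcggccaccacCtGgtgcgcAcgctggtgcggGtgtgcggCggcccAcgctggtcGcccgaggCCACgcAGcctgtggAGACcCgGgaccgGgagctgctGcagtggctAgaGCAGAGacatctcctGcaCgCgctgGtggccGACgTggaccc
minke whale INSL3: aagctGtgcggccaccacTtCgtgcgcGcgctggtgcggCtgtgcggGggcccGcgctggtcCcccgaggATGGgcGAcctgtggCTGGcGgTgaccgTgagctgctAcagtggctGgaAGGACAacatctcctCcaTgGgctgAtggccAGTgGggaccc
The last 96 coding bases of both genes, which end in the stop codon, differ at 21 positions, again shown in capitals.
mouse Insl3: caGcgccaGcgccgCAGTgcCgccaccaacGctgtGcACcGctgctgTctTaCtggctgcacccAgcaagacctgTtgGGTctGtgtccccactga
minke whale INSL3: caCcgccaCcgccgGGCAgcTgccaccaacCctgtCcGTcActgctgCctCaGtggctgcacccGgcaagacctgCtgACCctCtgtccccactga
The tables count reads on mouse genes, so they do not measure the whale transcript, and whether the 52 to 84 counts came from it was not tested.

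Rxfp2, the receptor of INSL3, was also lower. It held 22.4, 24.2 and 22.8 CPM in WT P23 and 4.68, 7.20 and 1.99 CPM in INSL3-KI P23. The groups did not overlap, and the log2 fold change was -2.32 (SE 0.43, adjusted p = 0.00626). Against WT P40, where Rxfp2 held 10.8, 8.31 and 8.34 CPM, the log2 fold change was -0.99 and did not pass the test. Post-meiotic germ cell genes fell in the same libraries, whose part in the Rxfp2 difference was not tested, and in bulk testis fewer cells of a type and less RNA per cell cannot be told apart.

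Of 16603 genes tested in the P23 testis, 1966 passed as lower (11.8%) and 1462 as higher (8.81%) in the knock-in. The thresholds were a change of 2-fold or more together with an adjusted p below 0.01, and genes past both are the differentially expressed genes (DEGs) named from here on. The median log2 fold change over all genes tested was 0.08. Scaling by library size alone moved that median to 0.55 and the DEGs to 1450 lower and 3607 higher. All 3428 DEGs had groups that did not overlap, as did 11301 of all genes tested. With WT P40 in place of WT P23, an alternative chosen after seeing the data, 540 of 16593 genes were called lower (3.25%) and 32 higher (0.193%). Without INSL3-KI replicate 3, 2661 were lower and 1412 higher. Without INSL3-KI replicate 1 they were 460 and 318, and without any 1 WT library 282 to 313 and 90 to 103.

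**Figure D1:**
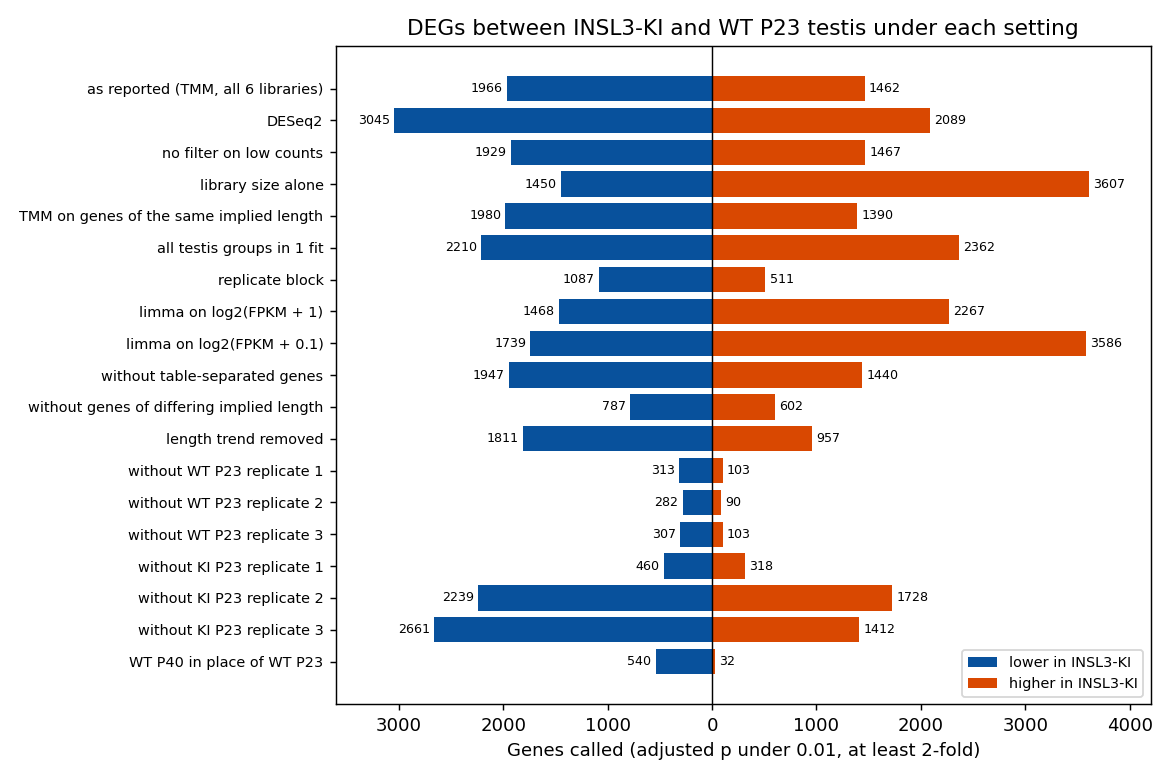
Number of DEGs lower (left, blue) and higher (right, orange) in INSL3-KI P23 testis under each setting, one bar per setting and direction, on a linear axis of genes. The reported fit calls 1966 lower and 1462 higher, and the counts run from 282 to 3045 lower and from 32 to 3607 higher.

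Genes of elongating spermatids had the lowest median of the cell type lists. In this list 22 of 36 genes were called lower and none higher (61.1%), with a median log2 fold change of -4.15 against 0.08 over all genes. Prm1, the protamine that packs sperm DNA, held 2519, 2957 and 2891 CPM in WT P23 and 46.3, 55.1 and 0.938 CPM in INSL3-KI P23. All WT libraries were far above all INSL3-KI libraries, of which replicate 3 was far below the other two, and the log2 fold change was -6.35 (SE 1.33, adjusted p = 0.00922). Transition protein Tnp1 fell from 978, 1204 and 1161 CPM to 14.9, 23.4 and 1.10 CPM (log2 fold change -6.41, SE 1.06, adjusted p = 0.00447). Oaz3, an antizyme of haploid germ cells, fell from 2944, 2874 and 2867 CPM to 90.6, 126 and 18.6 CPM (-5.21, SE 0.72, adjusted p = 0.00273). Prm3, a further protamine gene, held 61.3, 99.0 and 88.8 CPM in WT and 3.46, 4.68 and 0.855 CPM in INSL3-KI, and fell by 4.79 on the log2 scale (SE 0.60, adjusted p = 0.00199). Neither Prm2 (log2 fold change -6.03, SE 1.42, adjusted p = 0.0133) nor Tnp2 (-5.29, SE 1.23, adjusted p = 0.0130) passed the test, and in both the INSL3-KI replicates spread widely, from 1.05 to 94.4 CPM for Prm2. Without replicate 3, 34 of 36 genes were called lower. Against WT P40 the median was -3.50 and 0 genes were called in either direction.

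Round spermatid and acrosome genes followed. Here 26 of 38 were called lower and 0 higher (68.4%), with a median of -3.24. Acrv1, a protein of the acrosome, held 411, 387 and 389 CPM in WT P23 and 39.2, 65.9 and 9.49 CPM in INSL3-KI P23 (log2 fold change -3.37, SE 0.64, adjusted p = 0.00689). Izumo1, which sperm need to fuse with the egg, fell from 127, 136 and 125 CPM to 16.6, 22.9 and 3.01 CPM (-3.19, SE 0.66, adjusted p = 0.00872). Tssk1, a testis-specific kinase, fell from 463, 488 and 505 CPM to 71.4, 118 and 21.2 CPM (-2.79, SE 0.57, adjusted p = 0.00838). In each of these genes replicate 3 was the lowest INSL3-KI library and all WT libraries stood above all INSL3-KI libraries. Spaca6, another gene of sperm-egg fusion, had the smallest adjusted p of the list (36.0, 36.9 and 40.0 CPM against 4.19, 5.81 and 1.71 CPM, log2 fold change -3.27, SE 0.42, adjusted p = 0.00215). The count was 32 of 38 without replicate 3, and 1 of 38 against WT P40, where the median was -2.41. That gene was Tssk6, a kinase of elongating spermatids (-5.14 against WT P40).

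**Figure D2:**
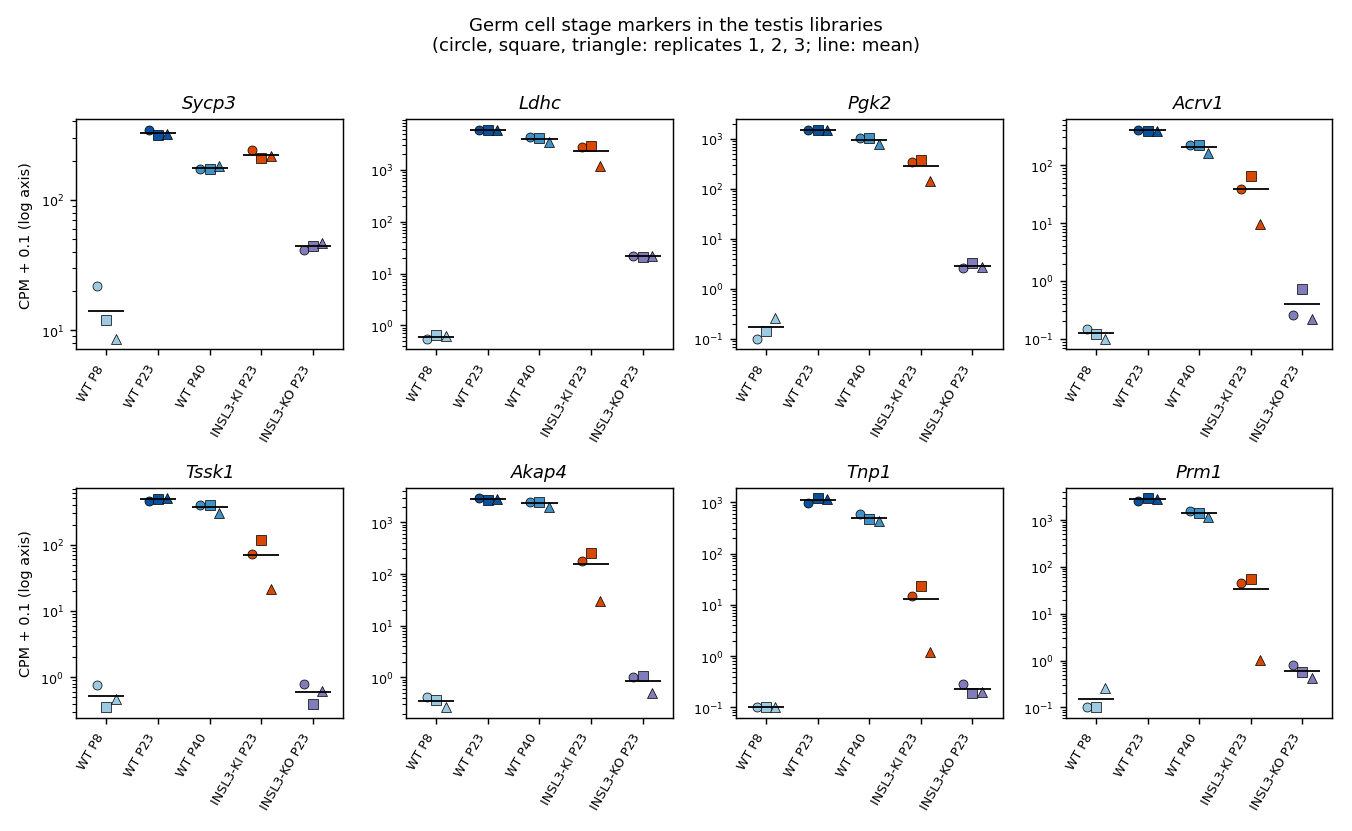
CPM + 0.1 on a log axis for 8 germ cell genes, ordered from spermatocyte (Sycp3) to elongating spermatid (Prm1), with 1 point per library, 3 libraries in each of 5 groups and a line at the mean. Sycp3 in INSL3-KI P23 (208 to 242 CPM) lies between WT P40 and WT P23, whereas Prm1 (0.938 to 55.1 CPM) lies below both and above WT P8.

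Meiotic genes differed less. Of 29 pachytene spermatocyte genes 7 were lower (24.1%, against 11.8% over all genes) and 0 higher, with a median of -0.82. Without replicate 3, 10 were lower. The germ cell kinase Pgk2, a glycolytic enzyme that takes over from its X-linked copy during meiosis, held 1542, 1478 and 1519 CPM in WT P23 and 350, 373 and 141 CPM in INSL3-KI P23 (log2 fold change -2.39, SE 0.38, adjusted p = 0.00396). Cpeb3, a translational regulator, held 189, 191 and 194 CPM in WT P23 and 19.5, 21 and 17.5 CPM in INSL3-KI P23, with little spread inside either group. It fell by 3.30 on the log2 scale (SE 0.13, adjusted p = 9.73e-05), and by 3.34 against WT P40 (192, 209 and 184 CPM), where it was also called. Cdc25c, a phosphatase that triggers cell division, held 22.6, 24.0 and 23 CPM in WT P23 and 4.38, 7.03 and 4 CPM in INSL3-KI P23 (-2.17, SE 0.25, adjusted p = 0.00148), below all 9 WT testis libraries of P8, P23 and P40. These 2 genes were the 2 of 29 also called lower against WT P40.

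In the synaptonemal complex and meiotic axis list 3 of 15 genes were lower and 0 higher, with a median of -0.48. Rec8, the meiotic cohesin that holds sister chromatids together, held 90.8, 103 and 95.6 CPM in WT P23 and 37.6, 45.2 and 40.9 CPM in INSL3-KI P23. The groups were well apart, with a log2 fold change of -1.22 (SE 0.13, adjusted p = 0.00128) and of -1.34 against WT P40. Syce2, of the central element that joins paired chromosomes, fell from 167, 177 and 200 CPM to 36.3, 36.3 and 29.6 CPM (-2.40, SE 0.15, adjusted p = 0.000273), and its partner Syce3 fell by 1.37. Rec8 and Syce2 were the 2 members called lower against WT P40. Sycp1 and Sycp3, the structural proteins of the complex, had log2 fold changes of -0.78 and -0.55, and neither reached a fold of 2. Sycp3 held 347, 314 and 323 CPM in WT P23, 242, 208 and 219 CPM in INSL3-KI P23 and 172, 174 and 181 CPM in WT P40.

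Meiotic recombination genes (1 of 30 lower, median -0.10, or 0.11 without replicate 3 and 0.37 with library size alone) and the piRNA pathway (1 of 23 lower, median 0.02) stayed near the median of all genes, and neither had a member called higher with TMM scaling and all 6 libraries. The recombination gene called lower, Spata22, is listed as Gm49340 in the table of the INSL3-KI libraries. It held 39.4, 33.4 and 35.2 CPM in WT P23, 3.32, 3.47 and 2.56 CPM in INSL3-KI P23 and 1.31, 2.88 and 0.302 CPM in WT P40. Against WT P40 its log2 fold change was 1.06 and not called. INSL3-KO P23, in the table of WT P23, held 4.61, 2.23 and 3.46 CPM. The whole recombination list summed to 313 to 330 CPM in INSL3-KO P23, 1833 to 1901 CPM in WT P23 and 1609 to 1722 CPM in WT P40. The part of the table in the Spata22 difference was not tested. In the flagellum and axoneme list 4 of 50 genes were lower and 0 higher, a smaller share than the 11.8% lower over all genes, with a median of -0.50. Without replicate 3 there were 7 lower and a median of -0.18, and with library size alone the median was -0.05.

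Of 27 spermatogonial genes 7 were higher and 1 lower, with a median of 0.50 (8 higher, 2 lower and 0.32 without replicate 3). The summed level of the list was nevertheless lower in every INSL3-KI P23 library (1009 to 1235 CPM) than in every WT P23 library (1457 to 1502 CPM). Zbtb16, a transcription factor of undifferentiated spermatogonia, held 3.88, 3.36 and 3.89 CPM in WT P23 and 16.5, 17.5 and 27.2 CPM in INSL3-KI P23 (log2 fold change 2.47, SE 0.25, adjusted p = 0.00116). Its groups did not overlap, and it was the 1 member called higher against WT P40 (1.82). Ret, the receptor subunit for the Sertoli cell signal GDNF, rose by 2.89 (SE 0.49, adjusted p = 0.00474). Gfra1, the co-receptor of Ret, went the other way, from 18.5, 20.5 and 18.2 CPM to 9.09, 10.3 and 6.34 CPM (-1.15, SE 0.21, adjusted p = 0.00621), below all 9 WT libraries. The markers Kit, Stra8 and Uchl1 were not called (log2 fold changes 0.50, 0.39 and 0.69).

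Leydig cell genes were called in both directions. Of 20 steroidogenic genes 4 were lower and 2 higher, with a median of 0.27. Over all genes 11.8% were lower and 8.81% higher, so calls in both directions do not by themselves set this list apart. Hsd17b3, the enzyme that makes testosterone from androstenedione, lies at chr13:64058266-64089230 (minus strand, GRCm38). It held 32.6, 30.3 and 30.5 CPM in WT P23 and 2.26, 1.99 and 1.46 CPM in INSL3-KI P23, and no INSL3-KI library came near a WT library. Its log2 fold change was -4.02 (SE 0.21, adjusted p = 0.000228), and -3.97 against WT P40. Cyp17a1, which makes the androgen precursors, held 291, 272 and 275 CPM in WT P23 and 72.1, 85.0 and 64.3 CPM in INSL3-KI P23 (-1.91, SE 0.15, adjusted p = 0.000484). Both genes were below all 9 WT testis libraries, since WT P8 held 81.4, 109 and 84.7 CPM of Hsd17b3 and 105, 117 and 132 CPM of Cyp17a1. Both were also called lower in INSL3-KI against WT at P8, where the groups share a table (log2 fold changes -3.18 and -2.95). At that age 7 of 20 Leydig genes were lower and 1 higher, against 511 lower and 476 higher of 15702 genes.

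Cyp11a1, which starts steroid synthesis from cholesterol, held 244, 247 and 244 CPM in WT P23 and 111, 132 and 92.7 CPM in INSL3-KI P23 (log2 fold change -1.13, SE 0.16, adjusted p = 0.00304), close to the 115 to 129 CPM of WT P8. Ptgds, prostaglandin D synthase, fell from 134, 142 and 145 CPM to 6.12, 4.77 and 18.1 CPM (-3.85, SE 0.53, adjusted p = 0.00281). It was not called against WT P40, at -2.95. Srd5a1, a steroid reductase of immature Leydig cells, was higher, with 12.0, 13.9 and 12.6 CPM in WT P23 and 36.4, 31.7 and 36.1 CPM in INSL3-KI P23 (1.44, SE 0.14, adjusted p = 0.000998), above all 9 WT libraries. Por, the electron donor of the cytochrome P450 enzymes, rose by 1.15 (SE 0.15, adjusted p = 0.00220).

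Other Leydig markers did not pass the test. The cholesterol carrier Star held 37.1, 35.2 and 35.3 CPM in WT P23 and 25.2, 29.1 and 105 CPM in INSL3-KI P23, so that replicate 3 lay above and the other 2 below all WT P23 libraries. Hsd3b1 held 76.1, 93.4 and 173 CPM in INSL3-KI against 145 to 158 CPM in WT, and Hsd3b6, the form of adult Leydig cells, 89.1, 87.9 and 167 CPM against 98.3 to 106 CPM. In all 3 genes replicate 3 was the highest INSL3-KI library, and the log2 fold changes were 0.58 (SE 0.54), -0.41 (SE 0.31) and 0.18 (SE 0.27). The luteinizing hormone receptor Lhcgr had a log2 fold change of 1.42 (SE 0.45, adjusted p = 0.0361). Without replicate 3 the list had 5 lower, 2 higher and a median of -0.14. Against WT P40, 3 members (Hsd17b3, Cyp17a1 and Cyp11a1) were lower and 1 (Srd5a1) higher.

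**Figure D3:**
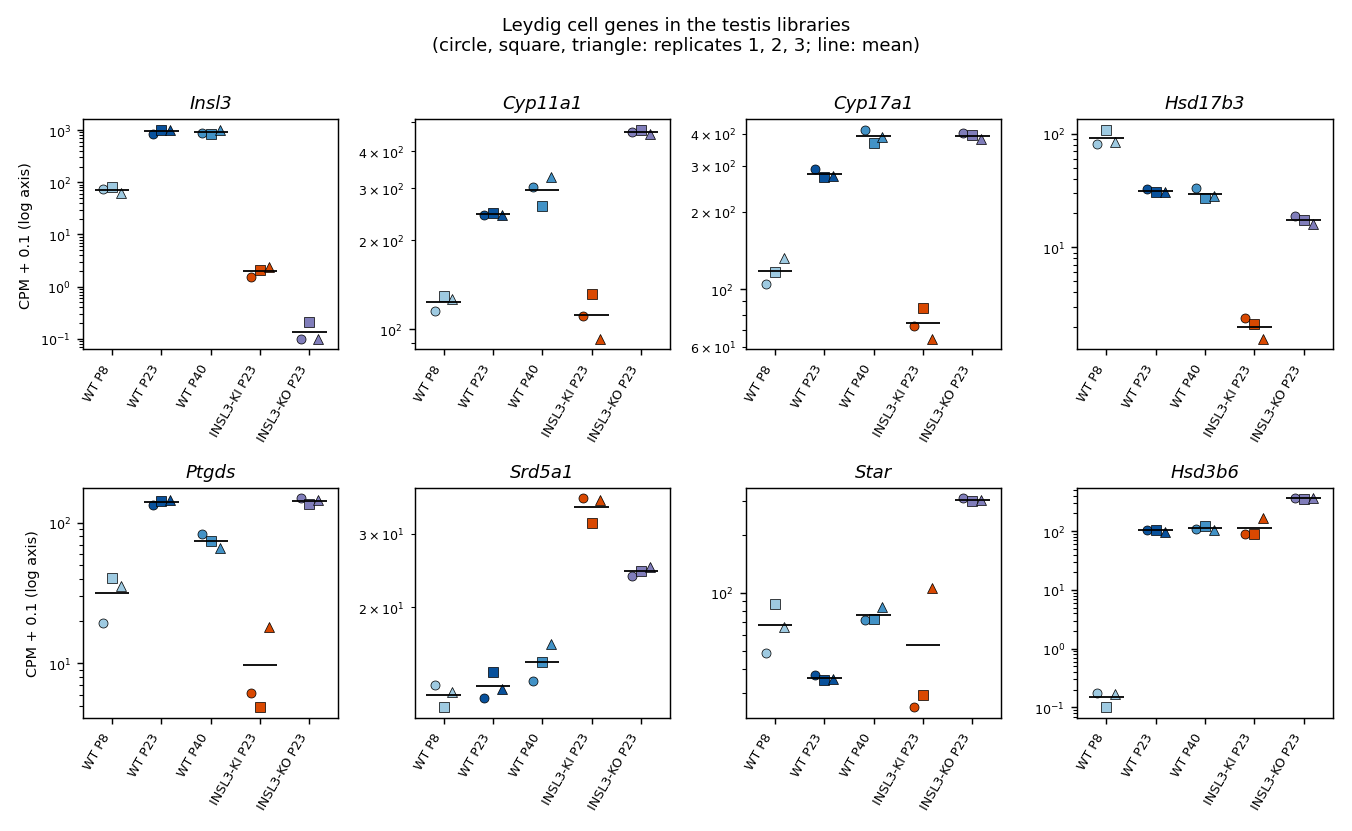
CPM + 0.1 on a log axis for Insl3 and 7 Leydig cell genes, 1 point per library in 5 groups of 3, with a line at the mean. Hsd17b3 in INSL3-KI P23 (1.46 to 2.26 CPM) lies below every WT and INSL3-KO library, and Srd5a1 (31.7 to 36.4 CPM) above them.

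In cholesterol synthesis 3 of 19 genes were lower (15.8%) and 2 higher (10.5%), against 11.8% and 8.81% over all genes, with a median of 0.19. Cyp51, the lanosterol demethylase, held 165, 168 and 157 CPM in WT P23 and 54.0, 61.6 and 50.6 CPM in INSL3-KI P23 (log2 fold change -1.55, SE 0.13, adjusted p = 0.000591), which put it at the WT P8 level of 55.6 to 56.1 CPM. Fdps, which makes farnesyl diphosphate, fell from 116, 113 and 115 CPM to 53.7, 54.8 and 47.0 CPM (-1.14, SE 0.12, adjusted p = 0.00118), below all 9 WT libraries. The groups of both genes were far apart. Fdft1, squalene synthase, fell by 1.64, while Mvd, of the mevalonate branch, rose by 1.65. Only Cyp51 was called against WT P40 (-1.11).

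Sertoli cell genes rose more often than they fell, with 11 of 32 higher (34.4%), 1 lower and a median of 1.29. Amh, the hormone that regresses the female ducts and a mark of immature Sertoli cells, held 4.24, 5.15 and 3.76 CPM in WT P23 and 34.9, 26.9 and 60.2 CPM in INSL3-KI P23 (log2 fold change 3.22, SE 0.35, adjusted p = 0.00130). All INSL3-KI libraries were above all WT P23 and WT P40 libraries and below WT P8, which held 494 to 751 CPM, and Amh was the 1 Sertoli gene called against WT P40 (2.73). The retinoic acid hydroxylase Cyp26b1 rose from 40.4, 43.2 and 42.0 CPM to 100, 100 and 157 CPM (1.52, SE 0.21, adjusted p = 0.00286). Sox9, Wt1, Fshr, Inha and Cldn11 were not called, with log2 fold changes from 0.95 to 1.94 and adjusted p from 0.0105 to 0.0281, and Clu stood at 0.33. Fabp3, a fatty acid binding protein, was the member that fell (-1.56). Replicate 3 was the highest INSL3-KI library in most of these genes. The list summed to 4265 CPM in replicate 2 and to 10151 CPM in replicate 3, against 4094 to 4189 CPM in WT P23, and without replicate 3 the median was 0.86 with 10 members higher.

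The structural genes around the tubules were also higher. Of 34 extracellular matrix genes 22 were higher and 0 lower (64.7%), with a median of 1.68 (21 higher and a median of 1.61 without replicate 3). Col1a1, of fibrillar collagen, held 72.3, 74.8 and 70.5 CPM in WT P23 and 401, 359 and 407 CPM in INSL3-KI P23 (log2 fold change 2.43, SE 0.14, adjusted p = 0.000244). Col6a3, of the collagen around cells, held 16.5, 17.6 and 17.6 CPM against 68.5, 67.4 and 67.0 CPM (1.98, SE 0.11, adjusted p = 0.000244). In both genes the 3 INSL3-KI libraries lay close together and well above all WT P23 libraries. Eln, elastin, rose from 7.65, 8.31 and 9.59 CPM to 159, 172 and 97.5 CPM (4.07, SE 0.26, adjusted p = 0.000285). Basement membrane genes were among them, such as Lamb2 (2.56) and Col18a1 (2.89). Against WT P40 the median was 1.23 and 1 gene, Col18a1, was called (2.03), and in that group replicate 3 of WT stood above the other two, with 175 CPM of Col1a1 against 83.5 and 57.2 CPM. WT P8 testes held still more, 1786 to 6444 CPM of Col1a1.

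Among peritubular myoid and smooth muscle genes 6 of 16 were higher and 1 lower, with a median of 1.07. Myh11, smooth muscle myosin, held 28.6, 37.2 and 36.2 CPM in WT P23 and 92.9, 92.6 and 140 CPM in INSL3-KI P23 (log2 fold change 1.68, SE 0.22, adjusted p = 0.00225). Actg2, an actin of smooth muscle, fell instead, from 432, 447 and 428 CPM to 25.2, 28.3 and 13.7 CPM (-4.28, SE 0.30, adjusted p = 0.000379). It held 269 to 307 CPM in WT P40, 13.3 to 34.7 CPM in WT P8, and was also called lower against WT P40 (-3.72). Acta2 was not called (0.77).

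**Figure D4:**
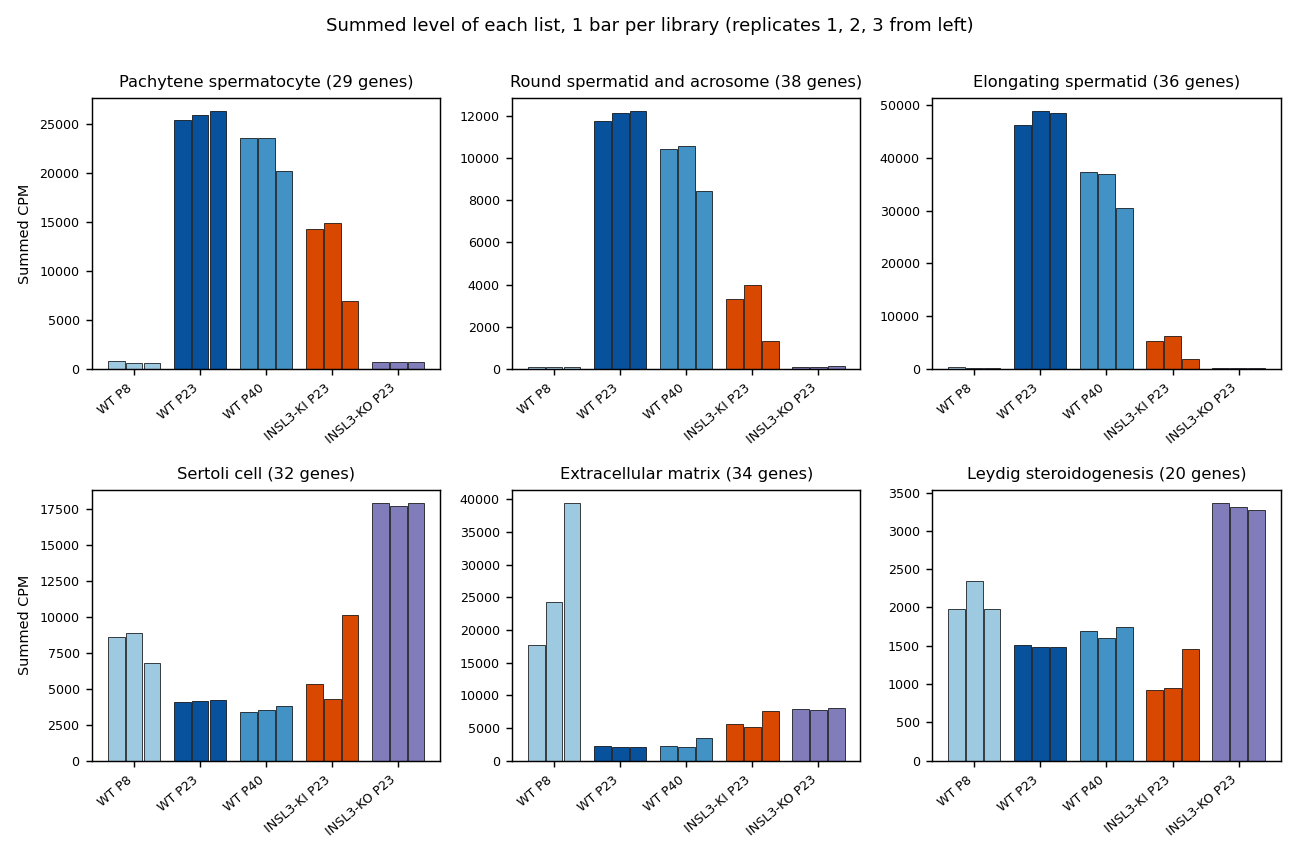
Summed CPM of 6 gene lists, on linear axes from 0, with 1 bar per library and replicates 1 to 3 from left in each of 5 groups. INSL3-KI replicate 3 has the lowest germ cell sums (1907 CPM for elongating spermatids) and the highest Sertoli cell sum (10151 CPM) of the INSL3-KI P23 libraries.

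The cAMP, PKA and CREB list covers the pathway downstream of RXFP2. It had 10 of 39 genes lower (25.6%), 8 higher (20.5%) and a median of -0.18, or 0.29 with library size alone, where the median of all genes was 0.55. Prkar2a, a regulatory subunit of PKA, held 402, 397 and 419 CPM in WT P23 and 28.1, 33.3 and 29.4 CPM in INSL3-KI P23, a tight level in both groups (log2 fold change -3.74, SE 0.15, adjusted p = 9.73e-05). It lay below all 9 WT libraries, including WT P8 at 66.6 to 76.1 CPM, and was lower against WT P40 as well (-3.56). INSL3-KO P23 held 33.3, 37.2 and 35.1 CPM. Akap1, which tethers PKA to mitochondria, fell from 1005, 1030 and 1009 CPM to 108, 130 and 40.5 CPM (-3.45, SE 0.43, adjusted p = 0.00205). Several other members called lower are known from spermatids, namely Crem (-1.70), Fhl5 (-4.19), Akap3 (-3.01), Akap4 (-4.18) and Creb3l4 (-3.25). The members called higher were the adenylyl cyclases Adcy5 (1.69), Adcy6 (1.17), Adcy7 (1.57) and Adcy9 (2.54), the CREB coactivators Crtc1 (1.20) and Crtc3 (1.64), Pde3a (2.11) and Prkar2b (1.37). Adcy9 held 2.84, 2.80 and 3.68 CPM in WT P23 and 14.4, 12.2 and 27.0 CPM in INSL3-KI P23 (SE 0.36, adjusted p = 0.00288), and 9.97 to 10.8 CPM in WT P40. Against WT P40, 3 members were lower (Prkar2a, Akap1 and Akap12) and 0 higher.

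Of 38 heat shock and chaperone genes 7 were lower (18.4%) and 4 higher (10.5%), against 11.8% and 8.81% over all genes. The list had a median of -0.05 (0.05 without replicate 3 and 0.41 with library size alone). Hspa1b, the inducible heat shock protein, held 4.60, 7.78 and 7.32 CPM in WT P23 and 23.2, 17.0 and 30.0 CPM in INSL3-KI P23 (log2 fold change 1.84, SE 0.30, adjusted p = 0.00421). Hsp90ab1 rose from 436, 443 and 457 CPM to 982, 828 and 1226 CPM (1.19, SE 0.20, adjusted p = 0.00491). The groups of both genes were apart, but against WT P40, which held 9.40 to 17.4 CPM of Hspa1b and 529 to 571 CPM of Hsp90ab1, neither was called (0.87 and 0.88). WT P8 held more of both than INSL3-KI P23, with 46.8 to 66.5 CPM of Hspa1b and 2082 to 2210 CPM of Hsp90ab1. Chordc1, a partner of HSP90, rose from 31.7, 33.6 and 31.2 CPM to 74.9, 49.3 and 72.9 CPM (1.04, SE 0.19, adjusted p = 0.00577), above all 9 WT libraries, and was higher against WT P40 too (1.47). Hsf2, a heat shock factor expressed in spermatocytes, fell from 81.2, 70.9 and 72.2 CPM to 24.8, 33.4 and 26.1 CPM (-1.41, SE 0.16, adjusted p = 0.00140). The testis-specific Hspa1l (-4.11) and Hspb9 (-1.81) were among those lower.

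Oxidative stress genes had 5 of 36 lower (13.9%) and 1 higher (2.78%), against 11.8% and 8.81% over all genes. Their median was 0.23 (-0.05 without replicate 3). Srxn1, sulfiredoxin, held 50.4, 49.3 and 49.8 CPM in WT P23 and 5.96, 6.79 and 4.77 CPM in INSL3-KI P23 (log2 fold change -3.09, SE 0.17, adjusted p = 0.000237). The peroxidase Prdx4 fell from 205, 195 and 196 CPM to 48.9, 48.9 and 53.9 CPM (-1.97, SE 0.12, adjusted p = 0.000285). Both were below all 9 WT libraries, and Srxn1 was also called against WT P40 (-2.66). The selenoenzyme Gpx4, which sperm mitochondria hold in large amounts, fell by 1.59, and Sod1 by 1.03.

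Growth factor and receptor lists had medians above that of all genes. TGF-beta and BMP genes had 8 of 34 higher, 1 lower and a median of 0.97, among them the activin subunit Inhbb (1.53) and the BMP target Id3 (2.27), while the inhibitor Smad6 fell by 2.04 (SE 0.35, adjusted p = 0.00496). Steroid and gonadotropin receptors with their growth factor partners had 5 of 16 higher, 0 lower and a median of 1.07. Without replicate 3 the medians were 0.74 and 0.59 with the same numbers called, and against WT P40 0 genes of the TGF-beta list and 1 of the receptor list were called. Igf1r, the receptor of insulin-like growth factor, held 6.21, 6.73 and 7.56 CPM in WT P23 and 45.2, 41.0 and 89.8 CPM in INSL3-KI P23 (3.11, SE 0.34, adjusted p = 0.00138). WT P40 held 27.8 to 36.0 CPM of it, and the log2 fold change against that group was 0.91 and not called. Its ligand Igf1 rose by 1.31 and also against WT P40 (1.86). Retinoic acid genes had 5 of 21 higher (23.8%) and 3 lower (14.3%), against 8.81% and 11.8% over all genes. Without replicate 3 they had 3 higher and 4 lower, and against WT P40 0 were called. Rdh10, which starts retinoic acid synthesis, fell from 30.9, 29.4 and 28.9 CPM to 10.7, 9.75 and 13.8 CPM (-1.37, SE 0.18, adjusted p = 0.00225).

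Immune genes were called in both directions, and the counts depended on the scaling. Over all genes 11.8% were lower and 8.81% higher. Macrophage genes had 3 of 24 lower (12.5%) and 1 higher (4.17%), and complement genes 5 of 28 lower (17.9%) and 2 higher (7.14%). TNF and NF-kB genes had 4 of 31 lower (12.9%) and 5 higher (16.1%). Interferon response genes had 0 of 28 lower and 1 higher (Stat2, 1.27, 3.57%). Lymphocyte and neutrophil genes had 1 of 8 lower (12.5%) and 0 higher. H2-Aa and H2-Eb1, of the class II major histocompatibility complex, held 10.3 to 11.3 and 8.25 to 9.55 CPM in WT P23 and fell to 1.99 to 4.63 and 1.66 to 3.89 CPM (log2 fold changes -1.71 and -1.81). The medians of the macrophage, complement, TNF and interferon lists were 0.63, 0.47, 0.82 and 0.79, and without replicate 3 they were 0.16, 0.12, 0.54 and 0.61. With library size alone, where the median of all genes was 0.55, macrophage genes had 7 higher and 1 lower, complement 8 and 4, TNF and NF-kB 11 and 3, and interferon response 9 and 0. The macrophage markers Adgre1, Cd68 and C1qa were not called (0.72, 0.80 and 1.16). The complement regulators Cd46 (-2.56), Cd55 (-2.80) and Cd59b (-2.58), which guard cells against complement, were lower. Cd46 held 20.8, 17.3 and 20.6 CPM in WT P23 and 3.84, 3.62 and 2.48 CPM in INSL3-KI P23 (SE 0.22, adjusted p = 0.000655), and was called against WT P40 (-2.01).

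Genes of apoptosis and p53 had 4 of 37 higher (10.8%, against 8.81% over all genes) and 0 lower, with a median of 0.65. They had 15 higher with library size alone, and 0 were called against WT P40. Sesn2, a stress-induced sestrin, rose from 47.5, 51.3 and 45.7 CPM to 152, 123 and 259 CPM (log2 fold change 1.90, SE 0.29, adjusted p = 0.00371), above all 9 WT libraries. Immediate early genes had 2 of 18 higher (11.1%) and 1 lower (5.56%), or 5 and 3 without replicate 3. Blood-testis barrier genes had 1 of 24 higher and 1 lower (4.17% each). Mitochondrially encoded genes had 1 of 13 higher (mt-Nd4l, 1.05, 7.69%) and 0 lower. Over all genes 8.81% were higher and 11.8% lower.

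Lists for vessels and blood, and for tissues outside the testis, gave no common direction, with 11.8% lower and 8.81% higher over all genes. Endothelial genes had 2 of 16 higher and 0 lower, erythrocyte genes 0 of 7 called, adipocyte genes 1 of 10 higher and 2 lower, skeletal muscle genes 2 of 9 higher and 1 lower, and epididymal genes 1 of 3 lower and 0 higher. Hba-a1 held 32.9 to 38.6 CPM in WT P23 and 31.9 to 65.0 CPM in INSL3-KI P23, and the epididymal marker Lcn8 was at or near 0 in every library.

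**Figure D5:**
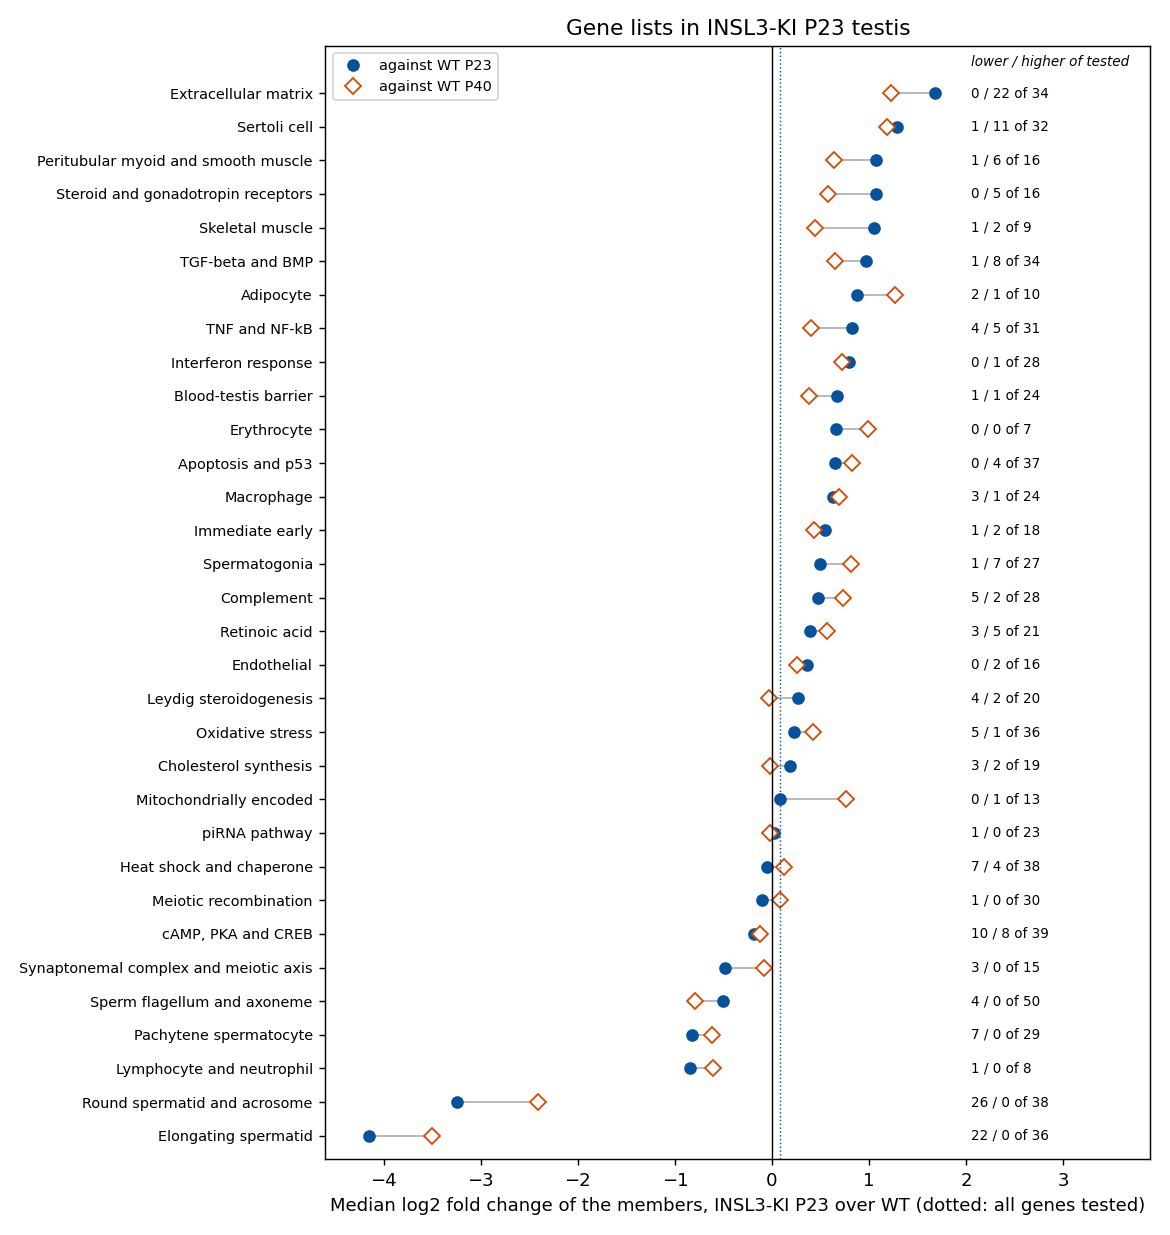
Median log2 fold change of the tested members of 32 gene lists (those with 7 or more tested members) in INSL3-KI P23 testis, against WT P23 (filled circles) and against WT P40 (open diamonds, same table), with the number called lower and higher against WT P23 at right. Elongating spermatid genes lie lowest in both (-4.15 and -3.50) and extracellular matrix genes highest against WT P23 (1.68).

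The DEGs were also set against the 9 WT libraries labelled P8, P23 and P40 together, a step chosen after seeing the data. WT P23 resembled WT P40, so the 9 libraries may hold no stage between P8 and P40. The part of age in the differences below was not tested. Of all genes tested, 507 had all INSL3-KI P23 libraries below those 9 (3.05%) and 745 above (4.49%). Among the DEGs these were 249 of the 1966 lower and 162 of the 1462 higher, and 3 of the 162 were genes whose level splits by table in the other libraries. Without INSL3-KI replicate 1 they were 114 and 50, without replicate 2 324 and 250, and without replicate 3 373 and 212. Against WT P40, 117 of the 249 lower and 10 of the 162 higher were also called. Hsd17b3, Cyp17a1, Insl3, Prkar2a, Srxn1, Prdx4 and Fdps were among the lower ones. Agpat2, an acyltransferase of lipid synthesis, held 149, 156 and 147 CPM in WT P23 and 5.55, 7.80 and 4.47 CPM in INSL3-KI P23 (log2 fold change -4.66, SE 0.24, adjusted p = 0.000228), with 13.1 to 37.6 CPM in WT P8. Prkcd, a protein kinase C, held 300, 310 and 300 CPM in WT P23 and 19.3, 24.0 and 17.3 CPM in INSL3-KI P23 (-3.90, SE 0.17, adjusted p = 0.000150). Srd5a1, Sesn2 and Chordc1 were among the higher ones. Sesn3, a second sestrin, held 37.4, 33.7 and 37.1 CPM in WT P23, 262, 237 and 193 CPM in INSL3-KI P23 and 164 to 183 CPM in WT P40 (2.68, SE 0.16, adjusted p = 0.000257). Drd4, a dopamine receptor, rose from 13.1, 12.1 and 9.67 CPM to 56.8, 50 and 103 CPM (2.59, SE 0.32, adjusted p = 0.00187). Against WT P40, Sesn3 (0.40), Drd4 (1.81) and Sesn2 (1.12) were not called, while Srd5a1 (1.23) and Chordc1 (1.47) were.

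Several of the genes with the largest fold changes differed between WT P23 and WT P40 as well. Necab1, a calcium-binding protein, held 0.520, 0.527 and 1.28 CPM in WT P23 and 60.9, 54.6 and 34.3 CPM in INSL3-KI P23 (log2 fold change 6.01, SE 0.44, adjusted p = 0.000404). It held 53.8, 65.2 and 51.4 CPM in WT P40 of the INSL3-KI table and 1.66 to 2.13 CPM in INSL3-KO P23 of the WT P23 table. Xylt1 (5.54), St6galnac3 (5.36), Gipc3 (4.97) and Zfp871 (4.57) showed the same order, with every WT P23 and INSL3-KO P23 library below every WT P8 and WT P40 library, and none was called against WT P40. Hist2h3c1 (6.37), a histone gene with near-identical copies, held 28.5, 0 and 25.6 CPM in the INSL3-KO replicates. On the lower side, Pfn3, a profilin of sperm, was undetected in all INSL3-KI P23 libraries and held 603 to 953 counts in WT P23, so it was at least 382-fold lower (floor of 3 counts per library). It was also undetected in WT P40 and nearly so in INSL3-KO P23. Poteg fell from 23, 18.8 and 22.6 CPM to 0.109, 0.119 and 0.110 CPM (-7.52), with 0.131 to 0.168 CPM in WT P40 and 0.0533, 0 and 0.194 CPM in INSL3-KO P23. The INSL3-KO libraries stand in the table of WT P23, but their elongating spermatid genes summed to only 237 to 251 CPM. That sum was 46193 to 48925 CPM in WT P23 and 30610 to 37428 CPM in WT P40, which stands in the INSL3-KI table. The part of the table in the low level of Pfn3 and Poteg was not tested.

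Car2, Klk1b8 and Klk1b22 were well detected in WT P40 too. Car2, carbonic anhydrase, held 290, 277 and 287 CPM in WT P23, 234, 227 and 184 CPM in WT P40 and 3.27, 4.51 and 0.882 CPM in INSL3-KI P23 (log2 fold change -6.62, SE 0.60, adjusted p = 0.000795, and -6.23 against WT P40). The kallikreins Klk1b8 (-6.75) and Klk1b22 (-8.52) were lower against both WT groups, and as members of a family of near-identical genes their counts are uncertain. Outside the 6 libraries compared, 46 of 21561 shared genes split by table with every library of one more than 2-fold above every library of the other. Of these, 44 were tested and 33 called. Hist2h2aa2, a histone gene with near-identical copies, was undetected in WT P23 and INSL3-KO P23 and held 80.6, 95.6 and 60.3 CPM in INSL3-KI P23 (at least 647-fold higher), with 67.6 to 193 CPM in WT P40. Nupl1 fell from 247, 233 and 240 CPM to 0.245, 0.385 and 0.138 CPM (-9.85), with 1.54 to 4.37 CPM in WT P40. Zfp935 was undetected in INSL3-KI P23 and held 49 to 82 counts in WT P23 (at least 31.0-fold lower).

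Whether the genotype difference changed with age was tested as an interaction over 18 WT and INSL3-KI libraries, with the P40 effect subtracted from the P23 effect. Of 17656 genes, 486 had a lower (2.75%) and 933 a higher (5.28%) effect at P23. These counts rested on single libraries, with 1915 and 2234 without INSL3-KI P23 replicate 3, 921 and 3025 without INSL3-KI P40 replicate 1, and 134 to 274 and 265 to 522 without any other 1 P23 or P40 library. In the round spermatid list 14 of 38 genes and in the elongating spermatid list 8 of 36 were among the higher, and 0 of either among the lower. Prm3 fell by 4.79 at P23 and by 9.0 at P40, an interaction of 4.25. Akap4, the anchoring protein of the sperm tail sheath, held 181, 261 and 30.1 CPM in INSL3-KI P23, fell by 4.18 at P23 and by 8.62 at P40, and had an interaction of 4.45. Leydig genes went the other way, with 5 of 20 among the lower and 0 among the higher. Hsd17b3 had a log2 fold change of -4.02 at P23 and of -1.36 at P40 (interaction -2.63), and Cyp11a1 of -1.13 and 0.54 (interaction -1.63). Of the 13 mitochondrially encoded genes 8 were among the lower. The P40 groups stand in the same table, so the interaction also carries the table through WT P23. The same test against P8 called 1684 genes lower (9.54%) and 2774 higher (15.7%), and there the INSL3-KI P8 libraries had more meiotic RNA than WT P8 (summed recombination genes 1208 to 1851 CPM against 328 to 531 CPM).

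INSL3-KI and INSL3-KO testes at P23 differed from each other, again across tables. Of 16379 genes, 2131 were lower (13%) and 4131 higher (25.2%) in INSL3-KI. The lower count was 3599 without INSL3-KI replicate 3 and 723 to 1278 without any other 1 library. All 35 elongating spermatid genes tested and 36 of 38 round spermatid genes were higher in INSL3-KI, and none was lower. Prm1 held 0.315 to 0.720 CPM in INSL3-KO P23. In the Leydig list 12 of 20 genes were lower in INSL3-KI and 0 higher. The comparisons with WT P23 share their control libraries and are therefore given only side by side. INSL3-KO against WT at P23 called 5584 of 16732 genes lower (33.4%) and 5199 higher (31.1%), with 1 Leydig gene lower and 13 higher and 35 of 36 elongating spermatid genes lower. Cyp17a1 had a log2 fold change of -1.91 in INSL3-KI and of 0.55 in INSL3-KO, and Cyp11a1 of -1.13 and 0.97. Cpeb3 had -3.30 and -3.16, and Rec8 had -1.22 and -1.18.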

How the data were processed

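Testis mRNA libraries (paired-end) of WT, INSL3-KI and INSL3-KO mice were analysed. The authors deposited 2 tables, each with raw read counts and with FPKM, their normalisation to gene length and depth. The submitters' processing notes name HISAT2 and GRCm38. The counting program, annotation release and strand setting are not given in the sources used here. No columns of the authors' own comparisons were used.

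Counts of the 21561 Ensembl genes in both tables were joined on the identifier. The main test was the edgeR 4.0.16 quasi-likelihood F test (R 4.3.3) with TMM, filterByExpr (minimum count 10, minimum total 15) and Benjamini-Hochberg adjustment. Calls needed both an adjusted p below 0.01 and a 2-fold change or more, the study's thresholds. SE is the absolute log2 fold change divided by the square root of F. Alternatives used DESeq2 1.42.0, limma 3.58.1 on log2(FPKM + 1) and log2(FPKM + 0.1), other scalings, filters and gene sets, a replicate block, and each library left out. Scripts were tested on simulated data. Gene coordinates are from GENCODE M21 (GRCm38). Of 861 entries in 34 gene lists, 855 matched. No 2 replicates agreed within sampling noise (chi-square per degree of freedom of at least 4.17).

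Named genes were Insl3, Rxfp2 and 4 genes of the study's testis text, up to 3 called members per list with the smallest adjusted p, the 6 largest changes in each direction at 10 CPM or more, up to 3 table-separated genes, and cell type markers. Other genes were chosen after their values were seen. Members and lists were chosen with earlier results of these data known. The mouse and whale INSL3 coding sequences come from the study's source data.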

Additional observations from a re-analysis of the deposited data

Results flagged for a closer look

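For the genes below the INSL3-KI effect differed between ages by the interaction test (edgeR quasi-likelihood, at the thresholds used for DEGs). Each value is the log2 effect at P23 minus that at the other age. WT P23 lies in another table than all other groups of this test, so these differences also carry the table.

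Against P40, Leydig and lipid genes had a lower effect at P23, with -2.71 for Insl3, -2.63 for Hsd17b3, -1.63 for Cyp11a1, -1.50 for Hsd3b1 and -1.12 for Cyp51. The class II genes H2-Aa (-3.27) and H2-Eb1 (-3.01) did so too. Germ cell genes had a higher effect at P23, with 4.25 for Prm3, 4.0 for Oaz3, 4.45 for Akap4, 4.16 for Acrv1, 3.56 for Tssk1, 3.19 for Izumo1 and 1.98 for Egr4.

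Against P8, the effect at P23 was lower for Insl3 (-1.94), Rec8 (-2.82), Cpeb3 (-4.23) and Car2 (-5.54) and higher for Hspa1b (2.40) and Hsp90ab1 (1.87). The INSL3-KI P8 libraries held more RNA of meiotic genes than WT P8, and its part in these values was not tested.

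The largest values came from genes with the largest fold changes at P23, most of which also differed between WT P23 and WT P40. Against P40 and P8, the differences were 5.54 and 4.86 for Hist2h3c1, 8.24 and 5.53 for Necab1, 3.40 and 6.07 for Xylt1, 7.30 and 6.06 for St6galnac3, 3.23 and 3.47 for Gipc3, 2.46 and 5.19 for Zfp871, and -6.55 and -10.44 for Poteg. Gm45902, which the other table lists as Hspa14, had -4.68 against P40, and Nupl1 had -11.07 against P8. Fitted values of genes at 0 in a whole group depend on the prior count and are no bound, which holds for Pfn3 (-17.81 and -15.57) and Hist2h2aa2 (15.96 and 12.78).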

How the results depend on the processing

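Of 16603 genes, 1966 were lower and 1462 higher, at 9717 genes with an unadjusted p under 0.05. DESeq2 called 3045 lower, and WT P40 in place of WT P23 gave 540 lower and 32 higher. Leaving out genes whose implied transcript length differed between the tables left 7546 genes tested, with 787 lower and 602 higher. Genes of unknown implied length were kept there. Higher calls numbered 3607 with library size alone, 2362 with all testis groups in 1 fit, 2267 with limma on log2(FPKM + 1), 3586 on log2(FPKM + 0.1) and 957 with the length trend removed. Leaving out 1 library gave 282 to 2661 lower and 90 to 1728 higher. The cause was not tested.

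With the replicate number as a block the calls were 1087 lower and 511 higher. The deviations of same-numbered samples correlated at -0.0193, 0.0012 and -0.0038, so no pairing by number was seen. Whether samples shared a litter or a day was not tested.

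For the difference between P23 and P40, DESeq2 called 947 lower and 2067 higher, and leaving out 1 library gave 134 to 1915 lower and 265 to 3025 higher. INSL3-KI against INSL3-KO had 723 to 3599 lower when 1 library was left out. Calls outside all 9 WT libraries ranged over 114 to 373 lower and 50 to 250 higher when 1 library was left out, with 401 higher under library size alone.

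Of 111 named DEGs, all 111 kept their direction under DESeq2, library size, limma on log2(FPKM + 1), 1 fit of all testis groups, the block, the length trend and every library left out, and 27 to 108 were still called with 1 library left out. Against WT P40, 102 of the 107 with a value kept it and 24 were still called. The 5 that turned were Gm49340 (1.06), Gm45902 (0.89), Necab1 (-0.19), St6galnac3 (-0.08) and Hist2h2aa2 (-0.81).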
